A study of Rattus norvegicus with 30 samples.

Results

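The epidermal growth factor (EGF) receptor, 4 of its ligands and 2 of its inhibitors were followed in the testis of rats given mono-(2-ethylhexyl) phthalate (MEHP) by gavage. MEHP is a breakdown product of a phthalate plasticizer and is known as a testicular toxicant. The 7 genes were Egfr, the ligands Hbegf, Areg, Ereg and Tgfa, and the inhibitors Errfi1 and Cmtm8. Every probe set of the Affymetrix Rat230_2 array annotated with 1 symbol equal to one of these was taken, which gave 11 of the 31042 probe sets that are not controls and 7 of the 14217 genes with such a probe set. Male Fischer rats of postnatal day 28 received either MEHP in corn oil at 1 g/kg body weight or corn oil alone, once and by mouth. Whole testes were taken 1, 2, 3, 6 or 12 h later from 3 animals per treatment and time, so that 10 groups of 3 animals gave 30 arrays, 1 per animal. The 1, 2 and 3 h animals were dosed in the afternoon and the 6 and 12 h animals in the morning, so time after gavage and hour of the day cannot be told apart between times. At each time MEHP and corn oil animals were compared with each other. One corn oil animal of 2 h, animal 7, has the treatment digit of the MEHP animals in its description code, while its other labels call it a corn oil control. It was kept as labelled, and some of the results that rest on it are also given without it.

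The EGF receptor is a tyrosine kinase of the cell surface. Its ligands are made as membrane-anchored precursors and are released by metalloproteases of the ADAM family. A bound receptor pairs with a second receptor of the ERBB family, recruits adaptors such as Grb2 and Shc1, and activates the RAS and ERK kinases, which induce transcription of early genes such as Fos and Egr1. Errfi1 (also called Mig6) is a feedback inhibitor that binds the receptor's kinase domain, and its own gene is induced by the pathway it restrains. Cmtm8 is a membrane protein of the CKLF-like MARVEL family that is known to speed removal of the receptor from the cell surface. In the testis the receptor has been described on Sertoli, Leydig and peritubular cells.

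Of the 7 genes, the 2 inhibitors changed, and in opposite directions. Errfi1 was 1.89-fold higher in MEHP than in corn oil animals at 3 h, 1.88-fold higher by 6 h and 1.73-fold higher by 12 h. Cmtm8 was 5.12-fold lower at 12 h. Egfr and Tgfa did not pass the test at any time, and Hbegf, Areg and Ereg lay too low to be tested. These folds come from log2(signal + 16), a scale on which the change of a dim probe set is understated.

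A probe set was tested where its signal reached the 40th percentile of an array (66.7 to 93.6) on at least 3 arrays, which 21190 probe sets did. Of the 11 member probe sets 6 did so, for 4 of the 7 genes: 2 each for Egfr and Tgfa and 1 each for Errfi1 and Cmtm8. One of them, Egfr 1370830_at, reached that level on 3 arrays, 2 of which were MEHP animals at 12 h, so its testing depended on the group in which it was high. Differences are given as log2 change ± standard error (n = 3 animals per group), with p-values from limma adjusted over all 21190 probe sets and a threshold of 0.05. By that rule 0 of the 6 tested member probe sets were called at 1 h, where 0% of all tested probe sets were called and 518 had an unadjusted p under 0.05. At 2 h again 0 of 6 were called, against 0.661% of all, where 2973 probe sets had an unadjusted p under 0.05. None of the 6 had an unadjusted p under 0.05 at either time, the lowest being 0.0731. At 3 h 1 of 6 was called (Errfi1), against 0.0425% of all. At 6 h 1 of 6 was called (Errfi1 again), against 0.203%. At 12 h 2 of 6 were called (Errfi1 and Cmtm8), against 8.74%. The members were chosen with earlier results of these data known, so their counts beside the shares of all probe sets are a description. The median log2 change over all tested probe sets was -0.03, -0.01, 0.01, 0.00 and -0.04 in the order of the 5 times.

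The arrays carried the cell types of a juvenile testis. Over all animals the summed signal of 9 Sertoli markers was 40430 to 71170 and that of 4 spermatocyte markers 41370 to 59040. Of 5 spermatid genes, Prm1, Tnp1 and Tnp2 had median signals of 7.40, 24.2 and 10.96, while Odf1 and Acrv1 passed the filter, with corn oil means at 12 h of 284 and 110.0. Further, Adam7, the 1 epididymal marker on the array, had 10.6. In a whole testis, fewer cells of a type and less RNA per cell cannot be told apart. Markers of several somatic cell types moved with treatment at 12 h, as given beside the results of that time. The log2 ratio of the 3′ to the 5′ hexokinase control, a measure of RNA integrity, was 0.70 in corn oil and 0.94 in MEHP animals at 1 h, 0.48 against 0.75 at 2 h and 0.70 against 0.48 at 3 h. By 6 h it was 0.81 against 0.83, and by 12 h 0.68 against 0.57. The RNA integrity number of the labels was 9.5 to 9.8 in corn oil and 9.2 to 9.3 in MEHP animals at 12 h. At 2 h it was 8.2 to 8.3 in corn oil and 8.4 to 8.5 in MEHP animals. At 1, 3 and 6 h its ranges in the groups overlapped, with the number of corn oil animal 35 missing. The part of both measures in the results was not tested. Pearson's r between animals of a group was 0.936 to 0.983.

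**Figure D1:**
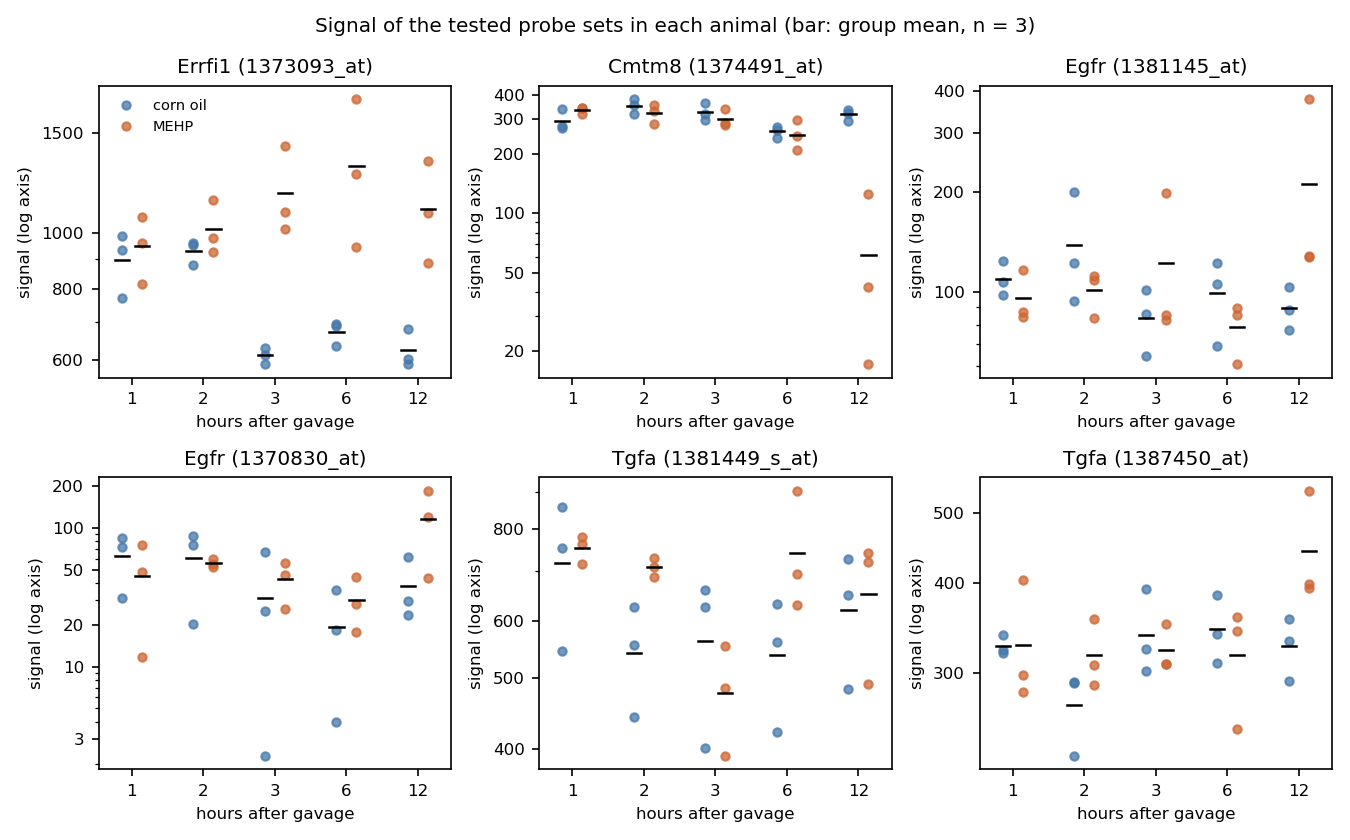
Signal of the 6 tested member probe sets in each animal (y axis, linear signal on a log axis) at 1, 2, 3, 6 and 12 h after gavage (x axis), with corn oil animals in blue, MEHP animals in orange and a bar for the group mean of 3 animals. The MEHP animals lie above the corn oil animals for Errfi1 from 3 h on (1020 to 1424 against 589 to 629 at 3 h), and below them for Cmtm8 at 12 h (17.2 to 126 against 295 to 336).

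Egfr, the receptor itself, was represented by 3 probe sets. The brightest, 1381145_at, ranged from 64.4 to 199.7 with a median of 101.5 in the 15 corn oil animals, near the middle of all probe sets (percentile 44.7). At 12 h its signals were 77.2, 88.4 and 104 in corn oil and 128, 129 and 378 in MEHP animals. All 3 MEHP animals lay above all 3 corn oil animals, as did 10.2% of tested probe sets at that time, and 1 MEHP animal stood far above the other pair. The log2 change of 0.94 ± 0.33 did not pass the test (adjusted p = 0.0808, limma, 95% interval 0.26 to 1.62). Without that animal the change was 0.46 (adjusted p = 0.545), and without either of the other MEHP animals it was 1.18 (adjusted p = 0.0287 and 0.0401).

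At the earlier times the MEHP and corn oil ranges of this probe set overlapped. Its log2 changes from 1 to 6 h were -0.18, -0.35, 0.38 and -0.27, each ± 0.33, with adjusted p (limma) of 0.682 or more. One corn oil animal reached 199.7 at 2 h and 1 MEHP animal 198 at 3 h, each well above the rest of its group. The second probe set, 1370830_at, read 23.5, 29.8 and 61.4 in corn oil and 43.7, 120 and 185 in MEHP animals at 12 h, and the groups overlapped. Its log2 change of 1.18 ± 0.54 had an adjusted p of 0.214 (limma). The third, 1385413_at, stayed between 1.501 and 33.1 on all 30 arrays and was not tested.

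Of the ligands, Tgfa (transforming growth factor alpha) was the one measured well above the filter, with both probe sets above it on all 30 arrays. Probe set 1387450_at read 292, 332 and 356 in corn oil and 394, 398 and 537 in MEHP animals at 12 h. The 3 MEHP animals lay above the 3 corn oil animals, and the log2 change was 0.41 ± 0.16 (adjusted p = 0.113, limma). The other probe set, 1381449_s_at, did not show this: it read 483, 649.6 and 729 in corn oil and 491, 722 and 742 in MEHP animals, a log2 change of 0.07 ± 0.21 (adjusted p = 0.916, limma). The 95% intervals of these changes were 0.09 to 0.73 and -0.37 to 0.50.

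At 2 h it was 1381449_s_at that separated the groups, with 443, 556 and 627 in corn oil and 688, 711 and 731 in MEHP animals. Such a separation with MEHP higher occurred in 7.33% of tested probe sets at 2 h, and the log2 change of 0.39 ± 0.21 had an adjusted p of 0.409 (limma). Without animal 7, the lowest of the corn oil animals, it was 0.26 ± 0.23 (adjusted p = 0.559, limma). At 6 h its signals were 423, 560 and 632 against 630.5, 694 and 902, a log2 change of 0.46 ± 0.21 (adjusted p = 0.92, limma), and the ranges just overlapped. In the remaining comparisons of Tgfa the log2 changes lay between -0.21 and 0.22, with overlapping groups and adjusted p (limma) of 0.555 or more.

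Hbegf, a heparin-binding ligand that can act while still anchored to the membrane, reached the filter level on 2 arrays, both of MEHP animals at 12 h. Its signals at that time were 29.6, 40.9 and 69 in corn oil and 50.6, 143 and 182 in MEHP animals. A pair of MEHP animals stood above every other array of the study, and the third lay within the corn oil range. When all probe sets were tested with no filter, the log2 change was 1.08 ± 0.41 (adjusted p = 0.136, limma). On all other arrays Hbegf stayed between 7.56 and 69.

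Areg (amphiregulin) and Ereg (epiregulin), which relay the luteinizing hormone signal within the ovarian follicle, were at or near the bottom of the scale. Areg lay between 1.63 and 38.1 on all 30 arrays and Ereg between 13.04 and 63.1, and neither reached the filter level on any array. Ereg read 34.1, 43.8 and 46.2 in corn oil and 13.04, 17.3 and 18.6 in MEHP animals at 6 h, with no overlap. Among probe sets below the filter 4.1% were separated in that direction at 6 h, and with no filter the log2 change was -0.83 ± 0.25 (adjusted p = 0.458, limma). At the other times the Ereg ranges of the groups overlapped, and so did the Areg ranges at all 5 times.

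**Figure D2:**
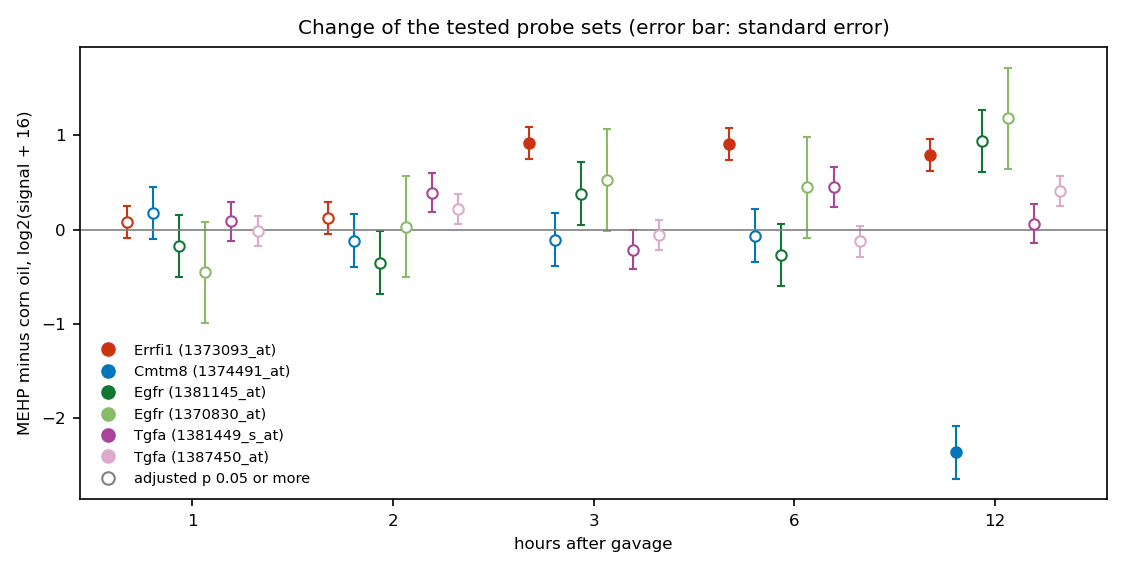
Difference of MEHP and corn oil means in log2(signal + 16) (y axis) with its standard error for the 6 tested member probe sets at each time after gavage (x axis), filled where the adjusted p was under 0.05 and open otherwise. The filled points are Errfi1 at 3, 6 and 12 h (0.92, 0.91 and 0.79) and Cmtm8 at 12 h (-2.36).

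The inhibitor Errfi1 was measured by 1 probe set, 1373093_at, among the brighter ones (percentile 77.3 in corn oil animals). At 1 h its signals were 770.3, 934 and 990 in corn oil and 815, 962 and 1070 in MEHP animals. At 2 h they were 881, 954 and 963 against 929, 983 and 1146. The groups overlapped at both times, with log2 changes of 0.08 ± 0.17 and 0.12 ± 0.17 (adjusted p = 0.96 and 0.806, limma).

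At 3 h Errfi1 read 589, 612.5 and 629 in corn oil and 1020, 1090 and 1424 in MEHP animals. The log2 change was 0.92 ± 0.17 (adjusted p = 0.0304, limma), and every MEHP animal lay above every corn oil animal, as in 6.53% of tested probe sets. At 6 h the signals were 633, 689 and 694 against 948, 1270 and 1721, again with no overlap (7.62% of tested probe sets), and the log2 change was 0.91 ± 0.17 (adjusted p = 0.0139, limma). At 12 h they were 589, 602 and 679 against 888, 1084 and 1343, a log2 change of 0.79 ± 0.17 (adjusted p = 0.00253, limma). The 9 MEHP animals of these 3 times all exceeded the 9 corn oil animals, as in 0.349% of tested probe sets. This grouping takes the times at which Errfi1 was called, so the share beside it is a description.

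The calls at 3 and 6 h were each lost without any 1 of several animals, with log2 changes of 0.70 to 0.96 in those omissions. The 3 h call was lost without corn oil animal 52 or 53 or MEHP animal 49 or 51 (log2 change 0.94, 0.89, 0.77 and 0.96; adjusted p = 0.141, 0.212, 0.35 and 0.0772, limma). The 6 h call was lost without corn oil animal 34, 35 or 36 or MEHP animal 32 or 33 (log2 change 0.93, 0.87, 0.93, 0.91 and 0.70; adjusted p = 0.0556, 0.101, 0.0709, 0.0815 and 0.114, limma). The 12 h call held without each of the 30 animals in turn, with adjusted p up to 0.0342. With only the 6 arrays of each time in the fit all 3 calls were lost (adjusted p = 0.71, 0.402 and 0.0818 at 3, 6 and 12 h, limma).

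The corn oil signals of Errfi1 differed between times, but the test across the 5 corn oil groups did not pass. Corn oil animals read 770.3 to 990 at 1 and 2 h and 589 to 694 at 3, 6 and 12 h, with no overlap between these sets of times, as in 0.543% of tested probe sets, a grouping chosen after the values were seen. The MEHP animals read 815 to 1146 at 1 and 2 h and 888 to 1721 later. Across the 5 corn oil groups the F test gave an adjusted p of 0.106 (limma; unadjusted 0.00198), and 0 of the 6 member probe sets passed it, against 0.033% of all. Without animal 7 Errfi1 passed (F = 5.33, adjusted p = 0.0439), but so did 9.18% of all probe sets. Across the 5 MEHP groups, in a test added after the values were seen, Errfi1 had an adjusted p of 0.391. The MEHP minus corn oil difference of Errfi1 varied between times (F = 6.45, adjusted p = 0.0439, limma). That call was lost without any 1 of 21 of the 30 animals, with F between 5.44 and 9.77 over all 30 omissions. Between neighbouring times the largest step was from 2 to 3 h, 0.80 ± 0.24 in log2, which did not pass the test (adjusted p = 0.209), nor did any probe set of the array for that step (0%).

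The sequence before the annotated start of Errfi1 is shown because the gene belongs to those known to be induced through ERK and cyclic AMP signals. It is the RefSeq window of 250 bases that ends at the start site, on the plus strand of chr5:166606591-166606840 in GRCr8, with 67.2% G and C. Capitals mark matches, on either strand, to the motifs searched.

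Errfi1: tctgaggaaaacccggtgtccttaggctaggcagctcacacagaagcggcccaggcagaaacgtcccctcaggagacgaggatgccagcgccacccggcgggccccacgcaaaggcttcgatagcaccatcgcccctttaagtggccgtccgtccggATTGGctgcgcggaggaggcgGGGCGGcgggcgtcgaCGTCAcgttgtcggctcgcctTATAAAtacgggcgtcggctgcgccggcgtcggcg

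The capitals are, in order, a CCAAT box on the opposite strand (first base at -93 from the start site), the GC box GGGCGG (-72), the CRE core TGACG on the opposite strand (-56) and the TATA box TATAAA (-35). Of 33469 RefSeq windows of this length in the rat, 34% held CCAAT, 30.5% GGGCGG, 18.2% TGACG and 12.9% TATAAA. The full cyclic AMP response element TGACGTCA, which contains the core on both strands, was not in the Errfi1 window and was in 1.59% of all windows. The same held for the AP-1 motif TGANTCA (6.34% of windows), the EGR motif GCGNGGGCG (4.29%) and the CArG box (1.5%). These matches describe letters and not bound sites.

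Cmtm8, the other inhibitor, was measured by probe set 1374491_at, which ranged from 242 to 379 in the 15 corn oil animals. At 12 h it read 295, 322 and 336 in corn oil and 17.2, 42.4 and 126 in MEHP animals. The highest MEHP animal lay below the lowest corn oil animal, and a pair of MEHP animals fell below the filter level of their arrays. The log2 change was -2.36 ± 0.28 (adjusted p = 3.1e-06, limma), and 11.5% of tested probe sets were separated in that direction. Because the low signals were near the bottom of the scale, the size of the change depended on the constant added before the logarithm and on single animals. Under the other pseudocounts, filters, normalization and covariates tried it lay between -2.78 and -1.69, and without each animal between -2.92 and -1.87. With only the 6 arrays of 12 h in the fit the change was -2.36 ± 0.47 and did not pass the test (adjusted p = 0.0672, limma).

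Before 12 h no difference in Cmtm8 was detected. At 1 h the signals were 271, 276 and 339 in corn oil and 320.1, 341 and 342 in MEHP animals. After 2 h they were 318, 355 and 379 against 283, 332 and 353, and after 3 h 299, 317 and 362 against 282, 286 and 339. Both groups were lowest at 6 h, with 242, 264 and 276 against 210, 246 and 296. The groups overlapped at all 4 times. The log2 changes were 0.18, -0.12, -0.11 and -0.06, each ± 0.28, with adjusted p (limma) of 0.904 or more.

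The Cmtm8 difference at 12 h minus that at 6 h was -2.30 ± 0.39 in log2 (adjusted p = 0.00319, limma), a step that 1.5% of tested probe sets passed. Over all 5 times the difference varied with F = 14.3 (adjusted p = 0.00134, limma). Thus 2 of the 6 member probe sets, Errfi1 and Cmtm8, passed the test of variation between times, against 2.87% of all, again as a description. Cmtm8 did not pass the test across the corn oil groups (adjusted p = 0.78), and passed the added one across the MEHP groups (F = 27.6, adjusted p = 4.7e-06, limma), as 9.28% of tested probe sets did. The second Cmtm8 probe set, 1397344_at, lay between 1.09 and 33.9 on all 30 arrays and was not tested.

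The window before the annotated start of Cmtm8 is given beside that of Errfi1 because these 2 inhibitors moved in opposite directions. It covers the minus strand of chr8:123416585-123416834 in GRCr8, with 63.6% G and C, and capitals mark motif matches as above.

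Cmtm8: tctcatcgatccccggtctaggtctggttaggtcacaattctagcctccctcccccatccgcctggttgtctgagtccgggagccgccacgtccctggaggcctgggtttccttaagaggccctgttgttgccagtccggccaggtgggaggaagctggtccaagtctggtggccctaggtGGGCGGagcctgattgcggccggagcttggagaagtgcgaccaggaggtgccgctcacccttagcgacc

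The 1 match was a GC box at -69, and the other motifs named for Errfi1 were not found in it. RefSeq windows were given for 6 of the 7 genes. In these, the Areg window held the full TGACGTCA at -91, and those of Egfr and Tgfa held GGGCGG at -51 and -154 and no other motif of the set.

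**Figure D3:**
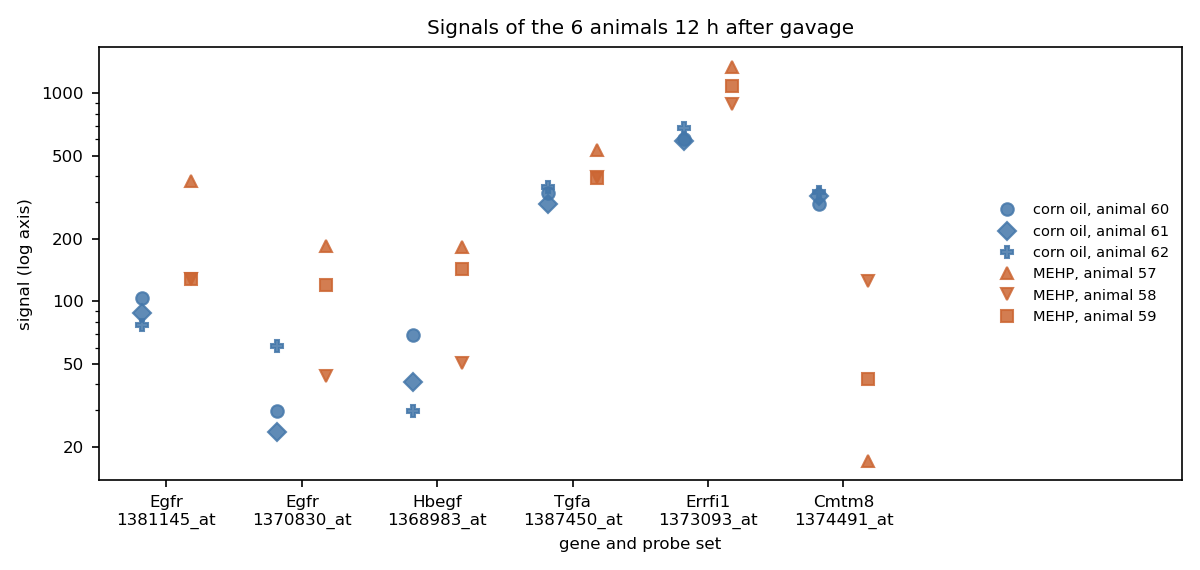
Signal (y axis, log axis) of 6 probe sets of Egfr, Hbegf, Tgfa, Errfi1 and Cmtm8 (x axis) in each of the 6 animals killed 12 h after gavage, corn oil animals in blue and MEHP animals in orange, with 1 symbol shape per animal. Animal 57 has the highest Egfr, Hbegf, Tgfa and Errfi1 signals and the lowest Cmtm8 signal, while animal 58 has the highest Cmtm8 signal of the MEHP animals.

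The 3 MEHP animals of 12 h lay in the order 57, 59, 58 for several members, in one direction or the other, as did 51.9% of all tested probe sets. Animal 57 had the highest signals for Egfr (378 and 185), Hbegf (182), Tgfa 1387450_at (537) and Errfi1 (1343), and the lowest for Cmtm8 (17.2). Animal 58 had the lowest for Egfr (128 and 43.7), Hbegf (50.6) and Errfi1 (888) and the highest for Cmtm8 (126). Animal 59 lay between them for Hbegf (143), Errfi1 (1084) and Cmtm8 (42.4).

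That order was not particular to the members. The hexokinase ratio was 0.23, 0.58 and 0.90 in animals 57, 59 and 58, the gavage volume 0.21, 0.24 and 0.265 ml and the median signal of the array 147, 142.4 and 125.2. The summed markers of Leydig cells, neutrophils, endothelium, spermatogonia, spermatocytes and spermatids lay in it too, while those of myoid cells, macrophages and Sertoli cells did not. The part of these measures in the member signals was not tested.

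Marker genes are read here against 6.1% of all genes higher and 4.3% lower at 12 h. The summed signal of 6 Leydig cell markers was 2892 in animal 57, 3817 in animal 59 and 8637 in animal 58, against 12920 to 16470 in corn oil animals. Of these markers 4 fell at 12 h (Cyp17a1, Cyp11a1, Lhcgr and Hsd3b1), and Star, the cholesterol carrier of the mitochondrion, rose (log2 change 1.38 ± 0.38, adjusted p = 0.0218, limma). Cyp17a1, the androgen-forming hydroxylase and lyase, read 112.5, 575 and 2343 in animals 57, 59 and 58, against 4445 to 6848 in corn oil animals. All 3 tested neutrophil markers rose, and the sum of 5 was 7928, 890 and 514 in animals 57, 59 and 58, against 62.0 to 74.5. S100a8 and Lcn2 read 116.7 to 1386 and 96 to 179.9 in MEHP animals at 12 h. In all other groups they read at most 75.7 and 50.07, so their testing depended on the group in which they were high. The same held for S100a9, which read 258.3 to 5972 in MEHP animals at 12 h. Its highest signals elsewhere were 134.1 in corn oil at 2 h, 85.73 in MEHP at 3 h and 35.38 in the remaining groups. Of 5 peritubular myoid markers 4 rose, with sums of 5840, 4245 and 6039 in animals 57, 59 and 58 against 2754 to 2887, and of 8 macrophage markers 1 (Mrc1) rose, with sums of 2412 to 3097 against 1619 to 1781. Of 5 endothelial markers 1 rose (Kdr, log2 change 1.03 ± 0.22, adjusted p = 0.00256, limma), with sums of 1114, 804 and 717 against 616.9 to 746.6. In the germ cell lists 0 markers passed at 12 h. The 9 Sertoli markers summed to 49030 to 50870 against 48420 to 53270, with Inhbb and Aard lower. The part of these cells in the member signals was not tested.

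Sums of the same lists were read at 2, 3 and 6 h. At 2 h, with animal 7 kept, the macrophage sum was 1446 to 1471 in MEHP and 1642 to 2188 in corn oil animals. The Sertoli sum was 45790 to 47550 and 50330 to 71170, and the neutrophil sum 95.76 to 102.9 and 107.9 to 288.7. Sums of the other lists overlapped. The macrophage marker C1qb and the spermatogonia marker Dmrt1 fell (log2 change -0.884 and -0.635, adjusted p = 0.0425 and 0.0157, limma), against 0.328% of all genes. At 3 h the Leydig sum was 10260 to 14300 in MEHP and 9401 to 12690 in corn oil animals, the neutrophil sum 80.5 to 172 and 64.3 to 118, the myoid sum 3109 to 4076 and 2905 to 3129, the macrophage sum 1630 to 1706 and 1509 to 1653, and the endothelial sum 696.9 to 766.6 and 715 to 786. No marker of these 5 lists passed the test at 3 h (limma). At 6 h the Leydig sum was 7215 to 10280 against 14220 to 14580 and Star fell, while the neutrophil sums, 51.8 to 141 and 69.8 to 80.0, overlapped. So did the myoid sums, 2958 to 3377 and 2633 to 3039, and the macrophage sums, 1713 to 2157 and 1675 to 1825. The endothelial sum was 577.7 to 663.6 in MEHP and 715 to 836 in corn oil animals.

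Genes whose log2 signals ran most nearly with a called member over the 30 arrays were looked up as a description, since all points share the arrays and the treatment. For Errfi1 they were the transcription factor Klf9 (Pearson r = 0.849), the MAP kinase phosphatase Dusp1 (0.794) and the transcription factor Egr1 (0.786). After the 10 group means were removed r was 0.715, 0.51 and 0.565. Klf9 rose at 12 h (log2 change 0.63, adjusted p = 0.00138, limma), and its changes at 3 and 6 h, 0.50 and 0.43, did not pass the test. For Cmtm8 they were the membrane progestin receptor Paqr7 (0.948), the lipoprotein receptor Lrp8 (0.948) and the ganglioside synthase B4galnt1 (0.939), with 0.901, 0.879 and 0.86 after group means were removed. All 3 fell at 12 h, by 1.37, 1.26 and 0.61 on the log2 scale (adjusted p = 0.000214, 0.000352 and 0.00491, limma), and did not pass the test before. Within groups Cmtm8 spread most among the 3 MEHP animals of 12 h (17.16 to 125.6). How far the r values after removal of group means rest on those animals was not tested.

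The other genes of the pathway were read from 8 lists of 86 genes, of which 73 had a probe set with 1 symbol and 62 were tested by their brightest probe set. At 1 h 0 of the 62 passed the test in limma, against 0% of 11280 genes. At 2 h 6 rose (0.204% of all genes) and 0 fell (0.328%). At 3 h 4 rose (0.0798%) and 0 fell (0%). At 6 h 7 rose (0.23%) and 0 fell (0.0266%). At 12 h 20 rose (6.1%) and 1 fell (4.3%). The median log2 change of the 62 was -0.08, 0.01, 0.16, 0.14 and 0.26 at the 5 times. These lists were chosen with earlier results of these data known, so the counts beside the shares of all genes are a description.

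Those that passed at 2, 3 and 6 h were all target genes, as were 15 of the 21 at 12 h. Without animal 7 the count at 2 h was 4, and without corn oil animal 48 or MEHP animal 43, 44 or 45 it was 3. At 3 h leaving out corn oil animal 52 gave 2, and leaving out MEHP animal 49 gave 1. With only the 6 arrays of a time the counts at 2, 3, 6 and 12 h were 1, 0, 3 and 14. The bacterial spike controls had a mean log2 signal of 11.8 in corn oil and 11 in MEHP animals at 2 h. With that level as covariate the calls over all probe sets at 2 h went from 140 to 13, and the count of the lists fell too. Treatment and spike level thus went together at 2 h, and the part of each was not tested.

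Of the other ligands Egf (corn oil mean at 12 h 95.03, MEHP mean 91.1) and Nrg2 were tested and did not pass at any time, and Btc had a median signal of 40.6. Of the other receptors Erbb2, the preferred partner of the EGF receptor, was tested, with log2 changes of -0.19 to 0.02 and adjusted p (limma) of 0.719 or more, while Erbb3 and Erbb4 had median signals of 48.3 and 19.2. Of 6 tested genes of ligand release 1 rose, at 12 h, when 6.1% of all genes did. It was Timp3, an inhibitor of the ligand-releasing protease Adam17, with 977 to 1168 in corn oil and 2011 to 2487 in MEHP animals (log2 change 1.07 ± 0.18, adjusted p = 0.000169, limma). Adam17 itself had a log2 change of 0.32 at 12 h (adjusted p = 0.0973).

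Of 11 other inhibitors 3 rose at 12 h (6.1% of all genes) and 0 fell (4.3%). Spry1, a feedback inhibitor of receptor kinase signalling, read 87.8 to 94.3 in corn oil and 293 to 505 in MEHP animals (log2 change 1.88 ± 0.32, adjusted p = 0.000301, limma). Its relative Spry4 rose by 1.26 ± 0.29 (adjusted p = 0.00536) and the phosphatase Ptpn1 by 0.69 ± 0.12 (adjusted p = 0.000311). None of the 11 passed before 12 h. At 6 h Spry1 had a log2 change of 1.33 ± 0.32 (adjusted p = 0.128, limma) beside 0.91 ± 0.17 for Errfi1. Whether these genes differ from Errfi1 in timing was not tested. Of the other 4 tested CMTM genes (Cmtm2a, Cmtm3, Cmtm6 and Cmtm7) 0 passed at any time, with log2 changes at 12 h of -0.06, 0.18, 0.28 and -0.03 beside -2.36 for Cmtm8.

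Among 11 adaptors and MAP kinases 1 fell at 12 h, against 4.3% of all genes. It was the exchange factor Sos2, with 1139 to 1314 in corn oil and 739 to 1003 in MEHP animals (log2 change -0.48 ± 0.12, adjusted p = 0.0104, limma). Among 7 genes of the other arms 1 rose at 12 h, against 6.1% of all genes. It was Stat3, with 311 to 327 in corn oil and 945 to 2634 in MEHP animals (log2 change 2.07 ± 0.24, adjusted p = 2.23e-06, limma).

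**Figure D4:**
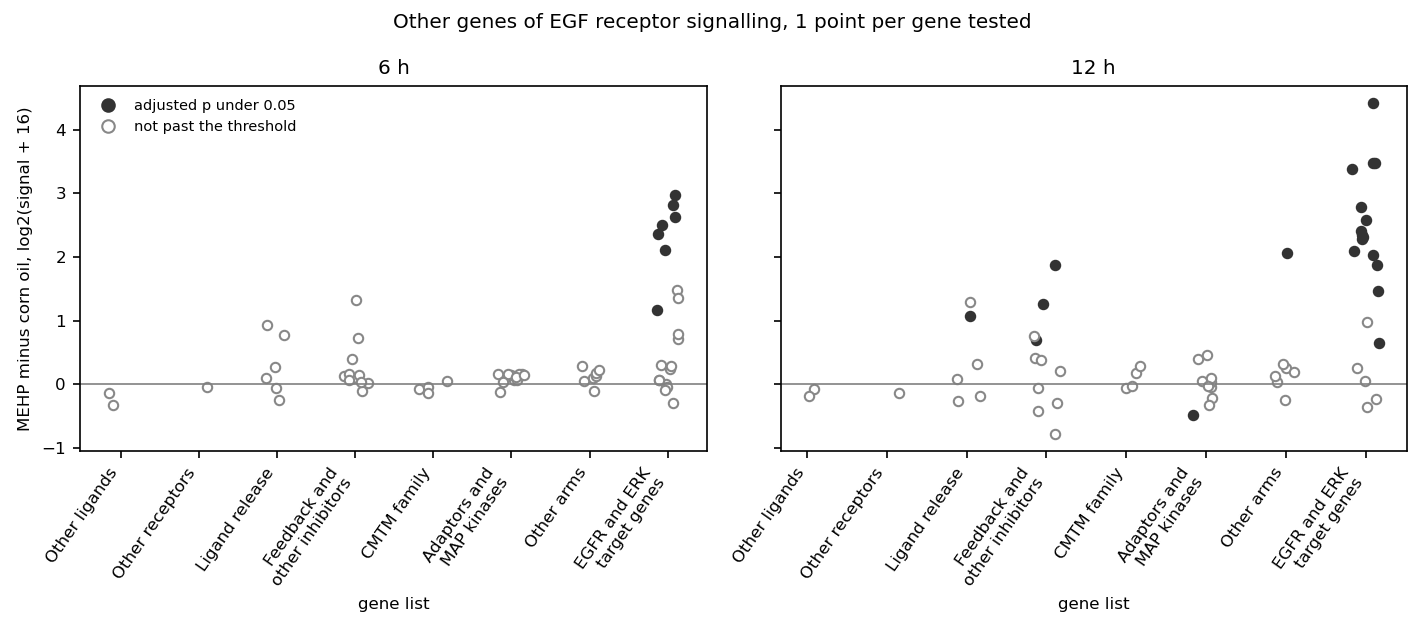
Difference of MEHP and corn oil means in log2(signal + 16) (y axis) for the 62 other pathway genes tested, by list (x axis), at 6 h and at 12 h, filled where the adjusted p was under 0.05. At 6 h all 7 filled points are target genes, and at 12 h 15 of the 21 filled points are.

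The target list held genes known to be induced through the EGF receptor and ERK, most of which respond to other receptors and to stress as well. Of its 20 tested members 0, 6, 4, 7 and 15 rose over the 5 times, against 0, 0.204, 0.0798, 0.23 and 6.1% of all genes. At no time did a member fall, and the median log2 changes were 0.03, 0.42, 0.55, 0.75 and 2.20. The list was chosen with earlier results of these data known, so these counts describe its genes and do not test the list. Ccn1, a secreted matrix protein, Egr1, Ier3 and Dusp1 passed at 2, 3, 6 and 12 h. Ccn1 changed by 1.98, 2.05, 2.63 and 3.48, each ± 0.23 (adjusted p from 0.000141 to 6.99e-10, limma). Dusp5, a phosphatase of ERK, and Fos passed at 2, 6 and 12 h, and Junb at 6 and 12 h. At 2 h, with animal 7 kept, the adjusted p of Fos, Dusp1 and Dusp5 was 0.0354, 0.0431 and 0.0465 (limma). Which of the calls at 2 h were lost without animal 7 is not given here. At 12 h the other genes that rose were Egr2, Fosl1, Ier2, Myc, Etv4, Plaur, Mcl1 and Emp1, with log2 changes from 0.65 (Mcl1) to 3.48 (Plaur). Plaur read 132 to 425.4 in MEHP animals at 12 h and at most 31.25 in all other groups, so its testing depended on the group in which it was high. Egr3, Dusp4, Dusp6, Etv5 and Ccnd1 did not pass at any time.

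Set beside these, Errfi1 was called at 3 h, 1 sampling time later than Egr1, Dusp1, Ier3 and Ccn1 in the fit with animal 7 kept. Its changes of 0.79 to 0.92 were smaller than theirs. Egr1, which rose from 168 to 292 in corn oil to 1802 to 3549 in MEHP animals at 12 h, was highest in animal 59 (3549), as was Fos (1855), whereas Errfi1 was highest in animal 57. Whether the time courses of Errfi1 and these genes differ was not tested.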

How the data were processed

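Per the labels, total RNA of whole testes was extracted with Trizol and RNeasy kits and put on Rat230_2 arrays of 1 colour. The deposited values are linear intensity, 1 per probe set, scaled by the authors. The submitters' processing notes name GCOS 1.0, and how probes were summarised and to what target arrays were scaled is not given in the sources used here. Arrays had a 2% trimmed mean of 500.1 to 500.2 and a median signal of 117.2 to 165.4. Precision is limited by the 3 animals per group.

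From these, log2(signal + 16) was modelled with limma 3.58.1 in R 4.3.3, with 1 mean for each of the 10 groups, 20 residual degrees of freedom and 24.2 after moderation with a trend. Tests were 2-sided, adjusted by Benjamini-Hochberg over the probe sets tested. The fit was tested on simulated data. The members, gene lists and marker lists were chosen with earlier results of these data known. Named genes were all members, list genes past the threshold, Egf, Btc and the other receptors, and the 3 genes closest to each called member. Other genes named with values (Nrg2, Adam17, the CMTM family, the markers) were chosen after their values were seen. Promoter windows are from RefSeq (GRCr8). Alternatives were other pseudocounts, filters, normalization, covariates, variance priors and sample subsets.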

Additional observations from a re-analysis of the deposited data

Results flagged for a closer look

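The difference between MEHP and corn oil animals was not the same at all times for 2 members. For Cmtm8 the test of variation over the 5 times gave F = 14.3 (adjusted p = 0.00134, limma), and the difference at 12 h was below that at 6 h by -2.30 in log2 (adjusted p = 0.00319). For Errfi1 the test of variation gave F = 6.45 (adjusted p = 0.0439). Single animals that stood apart within their group of 3 were not tested.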

How the results depend on the processing

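No paired analysis was possible because each animal has a number of its own, which recurs in no other group. The count of members whose difference varied between times was 2, and 1 (Cmtm8) with no filter, quantile normalization, the spike level or the array median as covariate or no trend, and 1 to 2 without each animal. With gavage volume as covariate it was 2, Cmtm8 and Egfr 1381145_at, while Errfi1 lost that call (F = 3.60, adjusted p = 0.191). The count called at 12 h was 2, but 5 with the array median as covariate (both Egfr probe sets and Tgfa 1387450_at added) and 0 with only the 6 arrays of that time (Cmtm8 adjusted p = 0.0672, Errfi1 0.0818), and 2 to 3 without each animal. The count at 3 h was 1, and 0 with the array median, gavage volume, no trend (Errfi1 adjusted p = 0.124, 0.076 and 0.0513) or only the 6 arrays (0.71), and 0 to 1 without each animal. The count at 6 h was 1, and 0 with only the 6 arrays (0.402), and 0 to 1 without each animal. In corn oil animals across times it was 0, and 1 with gavage volume (Egfr 1381145_at) or without animal 7 (Errfi1), so 0 to 1 without each animal. Egfr 1381145_at at 12 h also passed with quantile normalization (0.0498), gavage volume (0.00334) or without MEHP animal 49 (0.0478). The directions of Errfi1 at 3, 6 and 12 h and of Cmtm8 at 12 h held in all alternatives run.

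Changes that had not passed the test and turned sign were as follows. With gavage volume as covariate they were Cmtm8 at 1, 3 and 6 h (-0.0355, 0.067 and 0.0435), Egfr 1370830_at at 1 h (0.0696) and Egfr 1381145_at at 1, 2 and 3 h (0.32, 0.0197 and -0.0205). With the array median they were Cmtm8 at 3 h (0.0479), Egfr 1370830_at at 1 and 3 h (0.0823 and -0.275), Egfr 1381145_at at 1 h (0.075) and Tgfa 1387450_at at 3 h (0.0771). Against the 1 h corn oil animals, at 2 h, they were Cmtm8 (0.123), Egfr 1370830_at (-0.0665) and Tgfa 1387450_at (-0.0454). Egfr 1370830_at at 2 h was -0.0177 with a pseudocount of 64, Egfr 1381145_at at 2 h 0.00211 with the spike level, and Tgfa 1387450_at at 1 h 0.0413 with quantile normalization. Without each animal the range crossed 0 for Cmtm8 at 6 h (-0.182 to 0.0507), Egfr 1370830_at at 1, 2 and 3 h (-0.827 to 0.0369, -0.437 to 0.316 and -0.0337 to 1.06), Errfi1 at 1 h (-0.0276 to 0.181) and its 12 h minus 6 h step (-0.327 to 0.0973). It also did so for Tgfa 1381449_s_at at 1 and 12 h (-0.0945 to 0.226 and -0.1 to 0.252) and Tgfa 1387450_at at 1, 3 and 6 h (-0.164 to 0.082, -0.137 to 0.0439 and -0.217 to 0.0282). Egfr 1370830_at was below the filter in 3 of the 30 omissions.

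Over all probe sets the count at 2 h, 140, was 49 with no filter, 237 with a filter at the 60th percentile, 212 with quantile normalization, 13 with the spike level, 654 with the array median, 63 with no trend, 4 against the 1 h corn oil animals, and 11 to 330 without each animal. The count at 6 h, 43, was 75 with the array median. With only the 6 arrays of a time the counts at 2, 3, 6 and 12 h were 1, 1, 10 and 254. Without each animal the counts at 3, 6 and 12 h were 5 to 37, 13 to 75 and 969 to 2629. For the pathway lists, counted under these settings after the values were seen, the count at 2 h, 6, was 3 with no filter, no trend or the 1 h corn oil animals and 2 with the spike level. The causes were not tested.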
